A study of Mus musculus with 8 samples.

Results

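Interferon-stimulated antiviral genes were described as a group of 51 genes that cells switch on after interferon exposure, among the 24346 genes listed for 8 cultures of mouse adipose-derived stem cells (ADSCs). The members were chosen by gene symbol, without the antigen-presenting major histocompatibility genes, and all 51 were listed and tested. The libraries were made from total RNA of primary cultures of wild-type (WT) BALB/c mice, 1 library per mouse and culture. According to the methods of the study, the donors were male, 12 weeks old, and gave gonadal adipose tissue. In 2D, cells of mice 2, 3, 4 and 5 were grown in conventional ADSC medium, and in 3D, cells of mice 1, 4, 5 and 7 were grown as organoids embedded in Matrigel, a basement membrane extract. Mice 4 and 5 thus gave a library of each kind. The methods describe 3D media with several amounts of Wnt3a- and R-Spondin1-conditioned medium, and the labels give neither the medium nor the passage of the sequenced cultures. Replicates are therefore separate mice, and culture format, medium and any difference in passage cannot be told apart in this comparison.

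Type I interferons bind the IFNAR1/IFNAR2 receptor and activate the kinases JAK1 and TYK2, which switch on the transcription factor complex ISGF3. STAT2 and IRF9 are subunits of ISGF3, which binds the interferon-stimulated response element (ISRE) in the promoters of target genes. Type III interferons signal to the same complex through IFNLR1 and IL10RB, mostly in epithelial cells, and the products of the target genes sense viral nucleic acid, degrade RNA, block translation or hold virions at membranes. Cells also keep some of these genes on at a basal level without added interferon, and stem cells of several kinds are known for it.

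The labelled cell type was checked first against marker genes. The median level of 11 stromal markers was 5.10 to 6.69 on the log2(FPKM + 1) scale in the 2D libraries and 0.00 to 0.04 in the 3D libraries, while that of 12 epithelial markers was 0.00 to 0.21 in 2D and 7.48 to 7.77 in 3D. Of the stromal markers, 8 of 11 fell in 3D, among them the collagen gene Col1a1 (259.5 to 635 against 0.003703 to 0.107 normalized FPKM), and 11 of 12 epithelial markers rose, among them Epcam (0 to 0.0504 against 265 to 494). The stromal marker Ly6a rose instead (24.03 to 165 in 2D against 58.6 to 3117 in 3D, limma adjusted p = 0.0432). Cd44 (82.9 to 137.5 against 62.9 to 115, limma adjusted p = 0.362) and Lum (adjusted p = 0.251) did not pass. By most of these markers, though not by Ly6a and Cd44, the 3D libraries go against the stromal part of their label. In bulk RNA, fewer cells of a type and less RNA per cell cannot be told apart. The part of this difference in the values of the interferon-stimulated genes was not tested. Leukocyte markers were mostly low: Ptprc (CD45) reached at most 0.0779 normalized FPKM, Cd3e was at 0 in every culture, and the 12 markers summed to 2.49 to 24.5 in 2D and 6.29 to 42.3 in 3D. Of these, only Cd68 passed the test (limma adjusted p = 0.0133), at 0.874 to 3.005 in 2D and 5.98 to 36.3 in 3D. Without the 3D library of mouse 1, Csf1r, at 0.486 to 1.44 in 2D and up to 7.65 in 3D, passed as well (limma adjusted p = 0.00335). Other markers of the list went the other way, and the fitted difference was positive for 4 of the 11 tested. Lyz2 was at 0.227 to 18.7 in 2D and at 0 in every 3D library, without passing (limma adjusted p = 0.0894). Adgre1 and Tyrobp were above 0 only in 2D. The part of leukocytes in the members' values was not tested. The 5 endothelial markers summed to 1.07 to 6.79 in 2D and 0.0480 to 0.202 in 3D. The depth was estimated from the values at 16.45 to 17.35 M fragments in 2D and 14.55 to 15.55 M in 3D, and no member lay at or under the level of 3 fragments in all libraries of a culture. In single libraries some members did, among them Ifitm1 in 3D and Mx1 in 2D.

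The promoter windows of the members were searched for the element that ISGF3 binds. RefSeq promoter windows, from 250 bases before to 50 bases after the annotated start (GRCm38.p6), were found for 39 of the 51 members. The ISRE core was searched as GAAANNGAAA on both strands, where N is any base and matches may overlap each other. It occurred in 21 of the 39 members (53.8%) and in 3.99% of 27025 genes in the table. The interferon gamma element (GAS), searched as TTCNNNGAA on both strands, occurred in 9 of 39 (23.1%) against 9.55% of genes. The members were chosen as interferon-stimulated genes, so these higher shares may follow from the choice of the list. They are not a result about these cultures. The 130 bases before the start are shown for members of different roles, with ISRE core matches in capitals, because they let the sites be seen next to the expression values that follow. Only members with a match are shown. They are written 5′ to 3′ on the strand of the gene. Where the GENCODE start lies upstream of that of RefSeq (Ifit1, Gbp3, Ifitm2 and Oas3), the last bases fall in GENCODE's first exon.
Isg15 (chr4:156200819-156200948, minus strand): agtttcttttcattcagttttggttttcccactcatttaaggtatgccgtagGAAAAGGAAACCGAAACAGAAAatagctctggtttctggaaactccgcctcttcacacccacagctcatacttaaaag
Ifit1 (chr19:34640759-34640888, plus strand): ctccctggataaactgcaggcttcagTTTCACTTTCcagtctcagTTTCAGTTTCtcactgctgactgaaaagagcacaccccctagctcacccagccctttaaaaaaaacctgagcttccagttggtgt
Rsad2 (chr12:26456453-26456582, minus strand): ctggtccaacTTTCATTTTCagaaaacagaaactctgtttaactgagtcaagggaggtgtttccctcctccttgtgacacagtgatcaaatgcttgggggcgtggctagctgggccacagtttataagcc
Oas3 (chr5:120777660-120777789, minus strand): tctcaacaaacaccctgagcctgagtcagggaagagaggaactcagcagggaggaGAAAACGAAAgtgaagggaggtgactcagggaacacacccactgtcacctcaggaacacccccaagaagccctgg
Ddx60 (chr8:61927957-61928086, plus strand): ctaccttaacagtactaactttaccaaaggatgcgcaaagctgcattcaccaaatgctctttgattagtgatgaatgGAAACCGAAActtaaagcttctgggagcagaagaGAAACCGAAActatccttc
Gbp3 (chr3:142559914-142560043, plus strand): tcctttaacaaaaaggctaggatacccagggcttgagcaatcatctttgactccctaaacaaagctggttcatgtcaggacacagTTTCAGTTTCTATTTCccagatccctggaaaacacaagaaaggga
Ifitm2 (chr7:140955962-140956091, minus strand): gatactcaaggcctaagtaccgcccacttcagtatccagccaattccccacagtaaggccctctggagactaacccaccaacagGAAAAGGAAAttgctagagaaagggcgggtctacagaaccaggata

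In Isg15 the capitals cover 3 overlapping matches, and in Gbp3 a pair of them on the other strand. Ifit1 carried separate matches at -104 to -95 and at -85 to -76 from the start, and Ddx60 at -53 to -44 and at -19 to -10. Oas3 had its match at -75 to -66 and Ifitm2 at -46 to -37, both on the strand of the gene, and Rsad2 at -120 to -111 on the other strand. Ifitm2, with a log2 difference of 0.56 between the cultures, thus held a match to the same core as Oas3, with a log2 difference of 4.33, while the windows of Irf7 and Ifi44, which rose by 5.10 and 4.96, held none. A match is a description of letters and was not tested as a binding site.

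**Figure D1:**
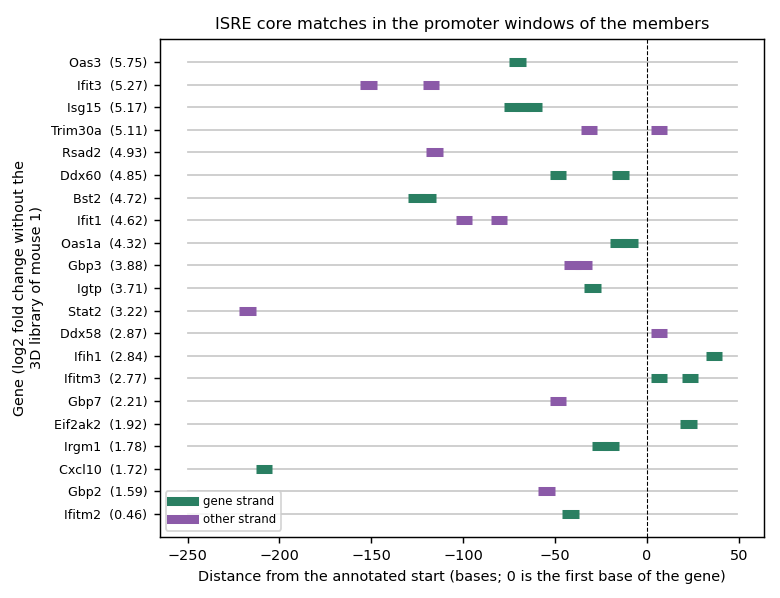
ISRE core matches (thick bars, green on the gene's strand and purple on the other) along the promoter windows of the 21 members that hold one, with the distance from the annotated start in bases on the x axis. Genes are ordered by their log2 fold change between 3D and 2D without the 3D library of mouse 1, from Oas3 at 5.75 to Ifitm2 at 0.46, and the 30 members without a match or a window are not drawn.

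To see whether the antiviral program differed between the culture formats, the 3D libraries were compared with the 2D libraries. Of the 51 members, 30 rose in 3D (limma, adjusted p under 0.05), where 21.2% of all 18862 genes tested rose, and 0 fell, where 20.3% of all genes fell. No member was lower at an unadjusted p below 0.05 either. The fitted difference was positive for 49 members, with a median of 2.67 on the log2 scale, against 0.001 over all genes. These differences are on the log2(FPKM + 1) scale, on which changes of genes with low values come out too small. In 2D the median member lay at 1.69 (mouse 2), 6.76 (mouse 3), 3.56 (mouse 4) and 2.07 (mouse 5) normalized FPKM, and in 3D at 2.58 (mouse 1), 76.5 (mouse 4), 46.3 (mouse 5) and 62.8 (mouse 7). The 3D libraries of mice 4, 5 and 7 were thus far above the 2D libraries, and that of mouse 1 lay inside the 2D range.

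That library stood apart, so the counts are given with it and without it. It was singled out for the low values of these same members. The larger differences and lower p-values that most members show without it follow in part from that choice. The fit without it therefore describes the other 7 libraries and is no independent test of the members. Without the 3D library of mouse 1, 44 members rose and 0 fell (21.5% of all genes rose), with a median difference of 3.22. Of these, 29 also passed with all libraries and 15 passed only without it, while Ifitm2 passed only with it. The members that did not pass without it were Cxcl10, Ifi27, Ifi27l2a, Ifit2, Ifitm1, Ifitm2 and Sp100. In the normalized values, all 4 3D libraries lay above all 4 2D libraries for 16 members (21.6% of all genes did). The 3D libraries of mice 4, 5 and 7 alone lay above all 2D libraries for 44 (25.1%). Bst2, among the 16, overlapped between the cultures in the deposited FPKM. Within mouse 4, whose cells gave both libraries, 50 of 51 members were higher in 3D, with a median difference of 3.57, and within mouse 5, 50 of 51, with a median of 3.08. Ifitm1 was the exception in both mice. In mouse 5 its deposited values (0.128 FPKM in 2D and 0.146 in 3D) lay under the level of 3 fragments. Each of these counts compares single libraries, and no share over all genes is given beside them. Leaving out 1 of the other 7 libraries lowered the count instead, to 18 without the 3D library of mouse 7, 19 without the 2D library of mouse 2, 4 or 5, 20 without the 3D library of mouse 4 or 5, and 27 without the 2D library of mouse 3. No share over all genes is given for these fits, which rest on fewer libraries, so the drop is not read as particular to the members. In all 7 of these fits 18 of the 30 members still passed, and 12 did not pass in at least 1 of them, each named with its role. A block for the mouse left 1 residual degree of freedom, and in that fit 0 members passed in limma after adjustment (the lowest adjusted p was 0.111), and 44 were higher at an unadjusted p below 0.05 (15% of all genes). A mouse with 1 library adds nothing to the difference in that fit. It thus rests on mice 4 and 5 and does not use the low 3D library of mouse 1.

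**Figure D2:**
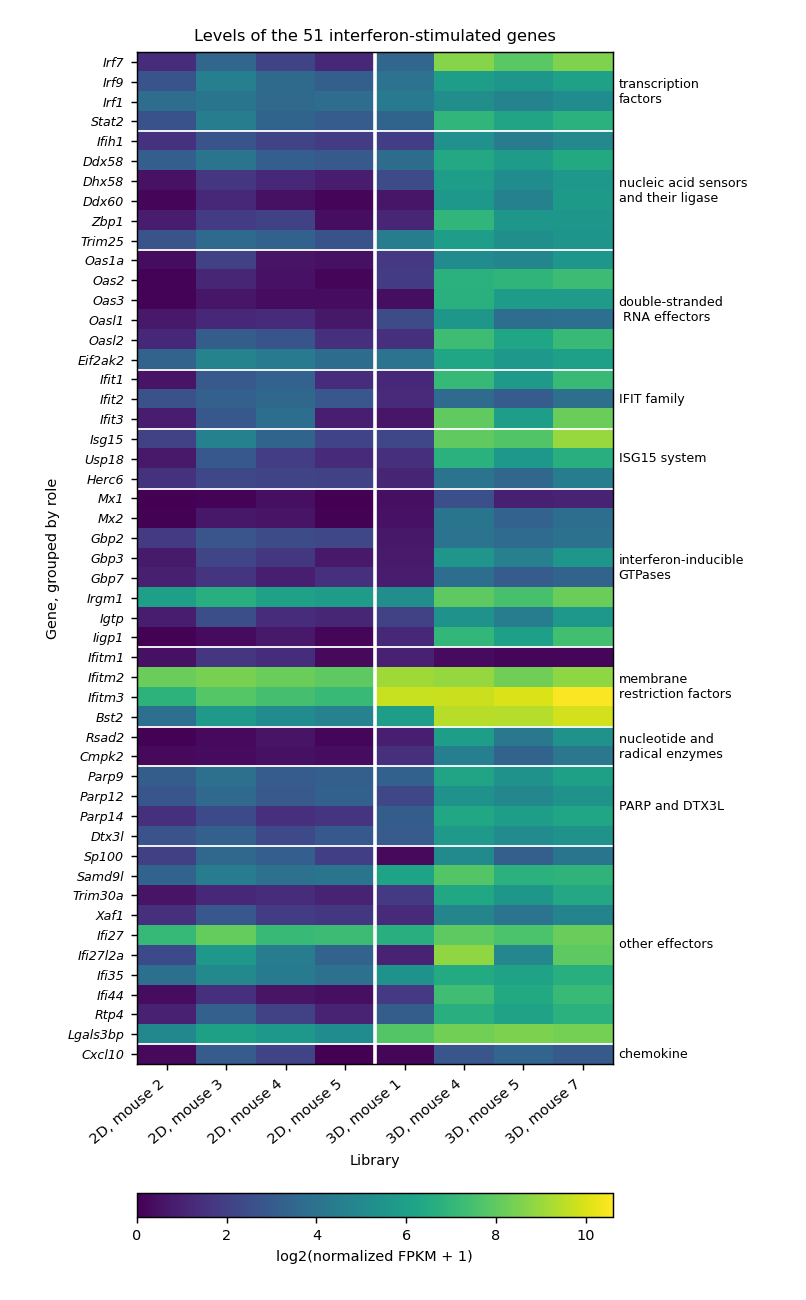
Level of each of the 51 members (rows, grouped by role) in each of the 8 libraries (columns), as log2(normalized FPKM + 1) in colour. The 3D libraries of mice 4, 5 and 7 are bright over most rows, with median members at 76.5, 46.3 and 62.8 normalized FPKM. The 3D library of mouse 1 lay inside the 2D range in 23 rows. It was above that range in 17 rows, such as Ifitm3 and Lgals3bp, and below it in 11, such as Sp100.

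How far the 3D library of mouse 1 differed was described with counts chosen after its values were seen. It was the lowest of the 3D libraries for 49 members and the highest for Ifitm1 and Ifitm2. It was lower than every other 3D library by more than 1 on the log2 scale for 41 members (80.4%), where 2.07% of all genes behaved in this way. The exceptions were Ifi27, Ifi35, Ifitm1, Ifitm2, Ifitm3, Irf1, Lgals3bp, Mx1, Samd9l and Trim25. Against the normalized 2D values it lay inside their range for 23 members and above all of them for 17. It was below all of them for 11, among them Gbp2, Irgm1 and Sp100. Some places differed in the deposited FPKM. There Ifit3, Herc6, Xaf1 and Gbp7 were inside the 2D range rather than below it. Bst2 was inside rather than above it, and Mx2 and Rtp4 were above rather than inside it. No share over all genes is given for its rank in 3D or its place against the 2D range, so these counts are description only. Of the 12 epithelial markers, Epcam (494 against 265 to 331 normalized FPKM) and Grhl2 (40.1 against 25.3 to 26.8) were higher there than in every other 3D library, while Cdh1, Cldn3, Cldn4, Esrp1, Krt8, Krt18 and Krt19 were lower than in every other, with Cldn4 at 248 against 305 to 442. The part of these markers in its values was not tested. Genes under 300 nt took 63.2% of its FPKM total, against 19.5% to 40.6% in the other 7 libraries. With those genes left out before normalization 30 members rose, a count without a share over all genes. The part of this share in its lower values was not tested beyond that.

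The 2D libraries also differed among themselves. For 41 members those of mice 3 and 4 both lay above those of mice 2 and 5 (23.8% of all genes did), a split that was also chosen after the values were seen. The 2D library of mouse 3 was the highest for 41 members and that of mouse 4 for 10, while that of mouse 2 was the lowest for 36. For these ranks no share over all genes is given. The 4 keratins of the epithelial list did not all follow this split. In mice 2, 3, 4 and 5 in turn, Krt8 was at 0, 26.8, 261 and 0.0603 normalized FPKM and Krt18 at 2.89, 114, 256 and 0, higher in mice 3 and 4. Krt7 was at 2.73, 3.02, 67.3 and 3.48 and Krt19 at 25.5, 31.6, 109 and 28.03, with only mouse 4 standing apart. The part of keratin-expressing cells in the members' values was not tested.

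The members are described by role, with the values of each given in the order of mice 2, 3, 4 and 5 in 2D and mice 1, 4, 5 and 7 in 3D. Among the transcription factors, all 4 rose with and without the 3D library of mouse 1. Irf7, the regulator that amplifies type I interferon production, was at 1.52, 10.3, 3.53 and 1.33 normalized FPKM in 2D and at 10.2, 413, 238 and 374 in 3D. The 3D libraries of mice 4, 5 and 7 exceeded every 2D library, and that of mouse 1 was level with the 2D library of mouse 3. Irf7 rose by 5.10 ± 1.19 (SE) on the log2 scale (limma adjusted p = 0.0106), and by 6.32 ± 0.58 without the 3D library of mouse 1 (adjusted p = 3.79e-04). Stat2, the interferon-specific subunit of ISGF3, was at 5.41, 21.3, 9.64 and 7.59 normalized FPKM in 2D and at 9.74, 125, 71.9 and 107 in 3D. The 3D libraries fell in the same order as for Irf7, with mouse 1 inside the 2D range. Stat2 was higher in 3D by 2.42 ± 0.80 on the log2 scale (limma adjusted p = 0.0439) and by 3.22 ± 0.44 (adjusted p = 0.00191) when that library was left out. Irf9, the DNA-binding subunit of ISGF3, covered 5.76 to 22.8 in 2D and 15.3 to 66.7 in 3D and rose by 1.84 ± 0.54 (limma adjusted p = 0.0276), or by 2.29 ± 0.42 without mouse 1 in 3D (adjusted p = 0.00631). Irf1, a factor induced chiefly by interferon gamma, was the steadiest of the 4, at 11.6 to 16.1 in 2D and 20.6 to 36.9 in 3D without overlap, and rose by 1.05 ± 0.20 (limma adjusted p = 0.00386), or by 1.21 ± 0.16 without mouse 1 in 3D (adjusted p = 0.00185). When 1 of the 7 libraries other than the 3D library of mouse 1 was left out, the call was lost in limma in 6 of these 7 fits for Stat2 (adjusted p up to 0.114) and in 6 for Irf9 (up to 0.0777). The Stat2 log2 fold change did not pass in limma without an intensity trend (adjusted p = 0.0529). Nor did the Irf1 log2 fold change pass with only mice 4 and 5, fitted without pairing (limma adjusted p = 0.0660).

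Of the 6 nucleic acid sensors and their ligase, 5 rose, and all 6 did so without the 3D library of mouse 1. Ddx58, which encodes the RNA sensor RIG-I and had the highest mean level of these, was at 7.86, 15.98, 8.01 and 7.1 normalized FPKM in 2D and at 12.5, 84.03, 55.4 and 85.7 in 3D. Mouse 3 was the highest of the 2D libraries and exceeded the 3D library of mouse 1. Ddx58 rose by 2.25 ± 0.60 (SE) on the log2 scale (limma adjusted p = 0.0193), and by 2.87 ± 0.30 without the 3D library of mouse 1 (adjusted p = 6.62e-04). Dhx58, encoding the regulatory helicase LGP2, was at 0.452, 2.22, 1.3 and 0.741 normalized FPKM in 2D and at 4.38, 59.9, 35.1 and 49.95 in 3D. The cultures did not overlap, with mouse 1 the nearest of the 3D libraries to those in 2D. Dhx58 was higher in 3D by 3.74 ± 0.75 on the log2 scale (limma adjusted p = 0.00547) and by 4.53 ± 0.32 (adjusted p = 1.34e-04) when that library was left out. Ddx60, a helicase that assists RIG-I-like sensing, was at 0.0929, 1.36, 0.375 and 0.142 normalized FPKM in 2D and at 0.573, 49.4, 23.99 and 53.3 in 3D. Zbp1, a sensor of Z-form nucleic acid, was at 0.791, 2.62, 3.18 and 0.308 normalized FPKM in 2D and at 1.19, 125, 48.01 and 48.3 in 3D. For both, mouse 1 in 3D fell inside the 2D range while the others exceeded it. Ddx60 rose by 3.67 ± 1.09 (SE) on the log2 scale (limma adjusted p = 0.0290), and by 4.85 ± 0.39 without the 3D library of mouse 1 (adjusted p = 2.22e-04). Zbp1 was higher in 3D by 3.55 ± 1.19 on the log2 scale (limma adjusted p = 0.0450) and by 4.78 ± 0.54 (adjusted p = 9.00e-04) when that library was left out. Trim25, the ubiquitin ligase that activates RIG-I, was at 5.597, 11.4, 8.74 and 5.36 normalized FPKM in 2D and at 20.8, 59.8, 38.1 and 44.03 in 3D, without overlap. Trim25 rose by 2.21 ± 0.35 (SE) on the log2 scale (limma adjusted p = 0.00173), and by 2.49 ± 0.29 without the 3D library of mouse 1 (adjusted p = 9.51e-04). Ifih1, encoding the long-RNA sensor MDA5, covered 1.82 to 5.84 in 2D and 2.79 to 39.6 in 3D. Ifih1 differed by 2.09 ± 0.73 on the log2 scale with all 8 libraries, which did not pass (limma adjusted p = 0.0521), and rose by 2.84 ± 0.35 without the 3D library of mouse 1 (adjusted p = 0.00126). With 1 of the 7 other libraries left out, the call was lost in limma in 7 of these 7 fits for Zbp1 (adjusted p up to 0.111), in 6 for Ddx60 (up to 0.0799) and in 6 for Ddx58 (up to 0.0565). The Zbp1 log2 fold change also did not pass in limma without an intensity trend (adjusted p = 0.0538) or with only mice 4 and 5 (adjusted p = 0.0606).

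**Figure D3:**
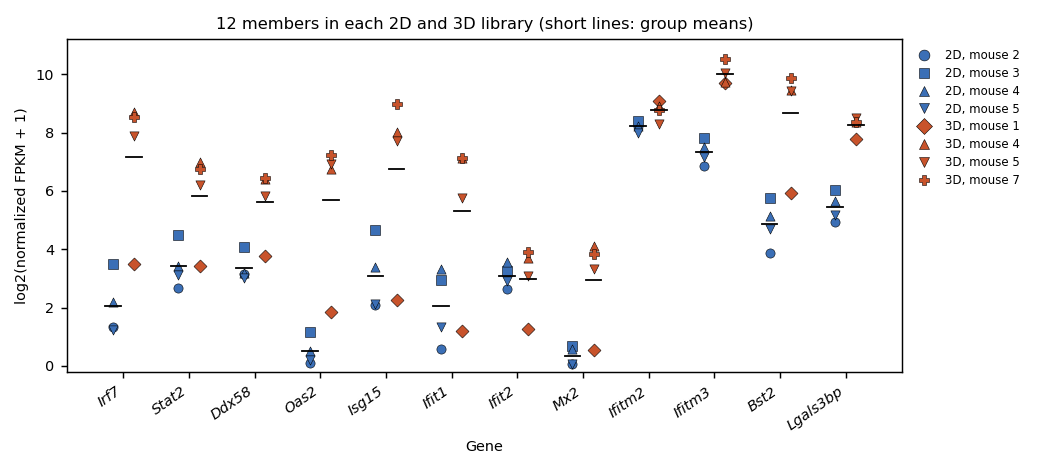
Level of 12 members, as log2(normalized FPKM + 1) on the y axis, in each 2D (blue) and 3D (orange) library, with 1 marker shape per mouse and short lines at the group means. For Irf7, Isg15 and Ifit1 the 3D library of mouse 1 (diamond) sits among the 2D libraries, while for Ifitm3 and Lgals3bp all 3D libraries sit above them.

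Of the 6 effectors that respond to double-stranded RNA, 4 rose, and all 6 without the 3D library of mouse 1. The oligoadenylate synthetases make the signal that activates the RNA-degrading enzyme RNase L. Oas2 was at 0.0747, 1.23, 0.416 and 0.149 normalized FPKM in 2D and at 2.58, 107, 120.0 and 151 in 3D. Oas3, which is built of repeated synthetase units, was at 0.0812, 0.579, 0.2702 and 0.278 normalized FPKM in 2D and at 0.326, 104, 56.1 and 55.3 in 3D. In 3D, mouse 1 was far under the other libraries for both, but above every 2D library only for Oas2. Oas2 rose by 5.20 ± 1.16 (SE) on the log2 scale (limma adjusted p = 0.00878), and by 6.48 ± 0.28 without the 3D library of mouse 1 (adjusted p = 1.85e-05). Oas3 was higher in 3D by 4.33 ± 1.28 on the log2 scale (limma adjusted p = 0.0290) and by 5.75 ± 0.26 (adjusted p = 2.37e-05) when that library was left out. The call for Oas3 was lost when any 1 of the other 7 libraries was left out (limma adjusted p = 0.0587 to 0.0803). Oas1a was at 0.274, 3.32, 0.475 and 0.386 normalized FPKM in 2D and at 2.398, 33.98, 28.3 and 46.8 in 3D. Oasl1, a synthetase-like gene that restrains Irf7 translation, was at 0.656, 1.32, 1.46 and 0.625 normalized FPKM in 2D and at 4.47, 48.4, 13.4 and 13.8 in 3D. Oas1a in 3D mouse 1 was inside the 2D range, whereas Oasl1 did not overlap. Oas1a rose by 3.46 ± 0.86 (SE) on the log2 scale (limma adjusted p = 0.0138), and by 4.32 ± 0.47 without the 3D library of mouse 1 (adjusted p = 7.58e-04). Oasl1 was higher in 3D by 2.97 ± 0.60 on the log2 scale (limma adjusted p = 0.00565) and by 3.47 ± 0.48 (adjusted p = 0.00193) when that library was left out. The Oasl1 log2 fold change did not pass in limma with only mice 4 and 5 (adjusted p = 0.0786). Oasl2, with the highest mean of the group, was at 1.34, 7.74, 5.66 and 1.72 normalized FPKM in 2D and at 1.68, 159, 74.2 and 142 in 3D. Mouse 1 in 3D was as low as the lower 2D libraries. Oasl2 differed by 3.40 ± 1.30 on the log2 scale with all 8 libraries, which did not pass (limma adjusted p = 0.0711), and rose by 4.77 ± 0.55 without the 3D library of mouse 1 (adjusted p = 9.99e-04). Eif2ak2, encoding the translation-blocking kinase PKR, covered 9.43 to 25.4 in 2D and 15.6 to 76.5 in 3D, and its difference of 1.44 ± 0.52 did not pass (limma adjusted p = 0.0565), while it rose by 1.92 ± 0.35 without mouse 1 in 3D (adjusted p = 0.00566). Reads of the neighbouring Oas1 genes may be split among near-identical copies, so the level of Oas1a is uncertain.

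None of the 3 IFIT genes, whose products bind foreign RNA at the ribosome, passed with all 8 libraries, and 2 rose without the 3D library of mouse 1. Ifit3, the most abundant of them, was at 0.819, 6.55, 13.3 and 0.847 normalized FPKM in 2D and at 0.544, 254, 61.3 and 299 in 3D. Ifit1, which recognizes RNA with an unmethylated cap, was at 0.485, 6.76, 9.11 and 1.53 normalized FPKM in 2D and at 1.301, 138, 52.5 and 140.0 in 3D. In these normalized values, mouse 1 in 3D was below every 2D library for Ifit3 and inside their range for Ifit1. In the deposited FPKM, Ifit3 was at 0.807 there, above the 2D libraries of mice 2 (0.545) and 5 (0.550). Ifit3 differed by 3.58 ± 1.70 on the log2 scale with all 8 libraries, which did not pass (limma adjusted p = 0.132), and rose by 5.27 ± 0.95 without the 3D library of mouse 1 (adjusted p = 0.00564). Ifit1 differed by 3.25 ± 1.37 on the log2 scale with all 8 libraries, which did not pass (limma adjusted p = 0.0964), and rose by 4.62 ± 0.77 without the 3D library of mouse 1 (adjusted p = 0.00415). Ifit2, which binds AU-rich viral RNA, behaved otherwise, at 5.21, 8.45, 10.8 and 6.43 normalized FPKM in 2D and at 1.38, 12.04, 7.51 and 14.1 in 3D. In 3D, mice 4 and 7 were just above the 2D libraries, mouse 5 was among them, and mouse 1 was the lowest of the 8. Ifit2 differed by -0.09 ± 0.57 with all libraries (limma adjusted p = 0.905) and by 0.49 ± 0.29 without that of mouse 1 (adjusted p = 0.233), and its direction changed between these fits. Ifit3 has a near-identical neighbour, Ifit3b, so that its reads may be split.

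The ISG15 system attaches the ubiquitin-like protein ISG15 to other proteins. Isg15 was at 3.24, 24.02, 9.601 and 3.37 normalized FPKM in 2D and at 3.84, 259, 211 and 501 in 3D. In 3D, mouse 7 was the highest, and mouse 1 was just above the 2D libraries of mice 2 and 5. Isg15 differed by 3.68 ± 1.44 on the log2 scale with all 8 libraries, which did not pass (limma adjusted p = 0.0771), and rose by 5.17 ± 0.70 without the 3D library of mouse 1 (adjusted p = 0.00180). Usp18, the protease that removes ISG15 and dampens receptor signalling, covered 0.634 to 6.599 in 2D and 1.66 to 108 in 3D, and Herc6, the mouse ligase for ISG15, covered 1.89 to 3.98 and 1.14 to 21.4. Neither passed with all libraries, and both rose without that of mouse 1, Usp18 by 4.67 ± 0.57 (limma adjusted p = 0.00122) and Herc6 by 2.01 ± 0.29 (adjusted p = 0.00229). Herc6 shares exon bases with the predicted gene Gm45193 on the same strand. Other members do so as well, among them Gbp7 (637 bases, with Gm43802) and Rtp4 (296, with Gm45338). Ifitm2 shares 268 of its 655 exon bases with Gm45717, and Igtp shares 162 with Irgm2.

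Interferon-inducible GTPases restrict virions or attack the vacuoles of intracellular microbes, and 3 of 8 rose, all 8 without the 3D library of mouse 1. Iigp1, a vacuole-disrupting GTPase, was at 0.03602, 0.228, 0.653 and 0.101 normalized FPKM in 2D and at 1.33, 128, 61.8 and 165 in 3D, without overlap. Iigp1 rose by 5.09 ± 1.27 (SE) on the log2 scale (limma adjusted p = 0.0140), and by 6.48 ± 0.36 without the 3D library of mouse 1 (adjusted p = 4.90e-05). Igtp, of the same family, was at 0.7699, 4.84, 1.54 and 1.19 normalized FPKM in 2D and at 3.101, 41.4, 21.2 and 49.1 in 3D. Mx2, a cytoplasmic GTPase in mice that restricts rhabdoviruses, was at 0.0429, 0.616, 0.478 and 0.0446 normalized FPKM in 2D and at 0.4498, 16.2, 8.96 and 13.3 in 3D. For both, mouse 1 in 3D was within the 2D range and the other 3D libraries were above it. In the deposited FPKM, Mx2 in that library (0.680) was above the highest 2D library (0.555). Igtp was higher in 3D by 2.93 ± 0.81 on the log2 scale (limma adjusted p = 0.0215) and by 3.71 ± 0.48 (adjusted p = 0.00156) when that library was left out. Mx2 rose by 2.60 ± 0.75 (SE) on the log2 scale (limma adjusted p = 0.0255), and by 3.41 ± 0.27 without the 3D library of mouse 1 (adjusted p = 1.98e-04). With 1 of the 7 other libraries left out, the call was lost in limma in 6 of these 7 fits for Igtp (adjusted p up to 0.0621) and in 6 for Mx2 (up to 0.0720). Irgm1, a regulator of that family, had the highest mean of the group, at 61.5, 99.05, 65.95 and 54.99 normalized FPKM in 2D and at 36.3, 248, 183 and 298 in 3D. It was already expressed in 2D, and mouse 1 in 3D was below every 2D library. Irgm1 differed by 1.11 ± 0.63 on the log2 scale with all 8 libraries, which did not pass (limma adjusted p = 0.199), and rose by 1.78 ± 0.25 without the 3D library of mouse 1 (adjusted p = 0.00204). Gbp2, Gbp3 and Gbp7, guanylate-binding proteins, reached 15.6, 46 and 13.2 normalized FPKM at most, all in 3D, and lay at 0.617, 0.678 and 0.792 in the 3D library of mouse 1. Their differences were 0.79 ± 0.74, 2.76 ± 1.07 and 1.56 ± 0.62, none of which passed with all libraries (limma adjusted p = 0.433, 0.0734 and 0.0806), and without mouse 1 in 3D all 3 rose, by 1.59 ± 0.24, 3.88 ± 0.45 and 2.21 ± 0.27 (adjusted p = 0.00281, 0.00101 and 0.00121). Mx1, an influenza-restricting GTPase that is disrupted in many inbred mouse strains, covered 0 to 0.3501 in 2D and 0.344 to 4.98 in 3D and did not pass (limma adjusted p = 0.0668), while it rose by 1.40 ± 0.40 without mouse 1 in 3D (adjusted p = 0.0336). The deposited 2D values of Mx1 in mice 2, 3 and 5 (0, 0.0672 and 0 FPKM) lay under the level of 3 fragments. Guanylate-binding protein genes lie in a cluster of similar copies, so reads may be shared among them.

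The membrane restriction factors held the most abundant members. Ifitm3, which blocks the entry of enveloped viruses at the endosome, was at 116, 223, 179 and 144 normalized FPKM in 2D and at 837, 856, 1063 and 1478 in 3D. Every 3D library, that of mouse 1 included, was above every 2D library. Ifitm3 rose by 2.67 ± 0.26 (SE) on the log2 scale (limma adjusted p = 1.45e-04), and by 2.77 ± 0.28 without the 3D library of mouse 1 (adjusted p = 5.41e-04). Bst2, encoding tetherin, which holds budding virions on the cell surface, was at 13.8, 52.6, 34.1 and 25 normalized FPKM in 2D and at 59.6, 706, 682 and 932 in 3D. The 3D library of mouse 1 was only just above the highest 2D library, and the others were well above it. In the deposited FPKM, Bst2 was at 51.3 in the 3D library of mouse 1, below the 55.9 of mouse 3 in 2D. Bst2 was higher in 3D by 3.80 ± 0.89 on the log2 scale (limma adjusted p = 0.0106) and by 4.72 ± 0.42 (adjusted p = 3.48e-04) when that library was left out. Ifitm2, a relative of Ifitm3, covered 251 to 341 in 2D and 313 to 542 in 3D, with mouse 1 the highest in 3D, and rose by 0.56 ± 0.18 (limma adjusted p = 0.0425). Without the 3D library of mouse 1 the difference was 0.46 ± 0.18 and did not pass (adjusted p = 0.0924), nor did it in 5 of the 7 fits that each left out another library (adjusted p up to 0.107). The Ifitm2 log2 fold change was 0.00 with the values as deposited (limma adjusted p = 0.999), 0.07 with median-ratio scaling (adjusted p = 0.806) and 0.50 with only mice 4 and 5 (adjusted p = 0.340). Ifitm1, mainly a surface member of the family, was the least abundant of the 51, at 0.199 to 2.22 in 2D and 0.138 to 0.9803 in 3D, and differed by -0.53 ± 0.35 (limma adjusted p = 0.266). Its deposited 3D values in mice 4, 5 and 7 (0.279, 0.146 and 0.134 FPKM) lay under the level of 3 fragments.

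Rsad2 and Cmpk2, neighbouring genes of chromosome 12, both rose. Rsad2 encodes viperin, which makes a chain-terminating nucleotide from CTP, and was at 0.05195, 0.194, 0.487 and 0.128 normalized FPKM in 2D and at 0.8702, 58.1, 18.1 and 42.5 in 3D. Cmpk2, a nucleotide kinase that supplies its substrate, was at 0.216, 0.251, 0.373 and 0.2696 normalized FPKM in 2D and at 1.67, 23.1, 9.502 and 17.5 in 3D. Neither gene overlapped between the cultures, and mouse 1 was the lowest 3D library for both. Rsad2 rose by 3.85 ± 1.01 (SE) on the log2 scale (limma adjusted p = 0.0173), and by 4.93 ± 0.39 without the 3D library of mouse 1 (adjusted p = 2.14e-04). Cmpk2 was higher in 3D by 3.05 ± 0.64 on the log2 scale (limma adjusted p = 0.00650) and by 3.71 ± 0.29 (adjusted p = 1.89e-04) when that library was left out. The call for Rsad2 was lost without the 3D library of mouse 7 (limma adjusted p = 0.0515).

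Of the 4 PARP and DTX3L genes, which attach ADP-ribose or ubiquitin to target proteins, 3 rose. Parp14, with the highest mean of these, was at 1.69, 4.26, 1.78 and 2.07 normalized FPKM in 2D and at 7.66, 78.05, 57.9 and 73.3 in 3D, without overlap. Parp14 rose by 3.65 ± 0.70 (SE) on the log2 scale (limma adjusted p = 0.00454), and by 4.40 ± 0.26 without the 3D library of mouse 1 (adjusted p = 6.76e-05). Dtx3l, the ubiquitin ligase partner of Parp9, was at 5.61, 8.54, 4.12 and 6.53 normalized FPKM in 2D and at 7.28, 51.02, 33.7 and 41.8 in 3D. In 3D, mouse 1 was inside the 2D range. Dtx3l was higher in 3D by 2.01 ± 0.56 on the log2 scale (limma adjusted p = 0.0229) and by 2.60 ± 0.24 (adjusted p = 3.80e-04) when that library was left out. Parp9 covered 7.41 to 14.1 in 2D and 8.83 to 71.1 in 3D and rose by 1.91 ± 0.62 (limma adjusted p = 0.0398), or by 2.56 ± 0.27 without mouse 1 in 3D (adjusted p = 7.00e-04). Parp9 and Dtx3l share 458 exon bases on opposite strands, and whether the counting used strand is not stated, so their reads there may not be told apart. Parp12, which restricts viral replication, covered 6.198 to 11.4 and 3.82 to 42.1, and its difference of 1.32 ± 0.69 did not pass (limma adjusted p = 0.167), while it rose by 2.07 ± 0.23 without mouse 1 in 3D (adjusted p = 8.71e-04). With 1 of the 7 libraries other than the 3D library of mouse 1 left out, the call was lost in limma in 7 of these 7 fits for Parp9 (adjusted p up to 0.105) and in 6 for Dtx3l (up to 0.0668).

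Among the 10 other effectors, 6 rose, and 7 without the 3D library of mouse 1. Lgals3bp, a secreted glycoprotein, was at 29.7, 65.01, 49.6 and 35.1 normalized FPKM in 2D and at 219, 328, 361 and 329 in 3D. Samd9l, a translation inhibitor that restricts poxviruses, was at 9.65, 21.6, 14.5 and 16.4 normalized FPKM in 2D and at 69.5, 216, 108 and 119 in 3D. For both, all 3D libraries exceeded all 2D libraries, with a narrow spread for Lgals3bp. Lgals3bp rose by 2.80 ± 0.27 (SE) on the log2 scale (limma adjusted p = 1.41e-04), and by 2.95 ± 0.27 without the 3D library of mouse 1 (adjusted p = 3.45e-04). Samd9l was higher in 3D by 2.90 ± 0.36 on the log2 scale (limma adjusted p = 5.30e-04) and by 3.15 ± 0.33 (adjusted p = 6.67e-04) when that library was left out. Ifi44 was at 0.271, 1.81, 0.49 and 0.343 normalized FPKM in 2D and at 2.37, 164, 84.9 and 140.4 in 3D. Trim30a, a mouse ubiquitin ligase that dampens inflammatory signalling, was at 0.456, 1.24, 1.51 and 1.09 normalized FPKM in 2D and at 2.49, 80.4, 48.4 and 84.5 in 3D. Neither overlapped, although mouse 1 in 3D was close to the 2D libraries. Ifi44 rose by 4.96 ± 1.20 (SE) on the log2 scale (limma adjusted p = 0.0122), and by 6.27 ± 0.36 without the 3D library of mouse 1 (adjusted p = 5.49e-05). Trim30a was higher in 3D by 4.02 ± 0.98 on the log2 scale (limma adjusted p = 0.0131) and by 5.11 ± 0.27 (adjusted p = 4.12e-05) when that library was left out. Rtp4, which inhibits flavivirus replication, was at 0.945, 8.43, 3.27 and 1.02 normalized FPKM in 2D and at 7.81, 103, 68.04 and 107 in 3D. In 3D, mouse 1 was below the 2D library of mouse 3, though in the deposited FPKM it was just above it (8.40 against 8.27). Rtp4 rose by 3.85 ± 0.90 (SE) on the log2 scale (limma adjusted p = 0.0106), and by 4.69 ± 0.59 without the 3D library of mouse 1 (adjusted p = 0.00133). Ifi35, an adaptor that pairs with Nmi, covered 14.2 to 30.3 in 2D and 43.1 to 100.2 in 3D without overlap and rose by 1.86 ± 0.32 (limma adjusted p = 0.00273), or by 2.10 ± 0.29 without mouse 1 in 3D (adjusted p = 0.00194).

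The remaining effectors did not pass with all libraries. Ifi27, a mitochondrial protein with the highest mean level of the group, was at 135, 274, 143 and 154 normalized FPKM in 2D and at 100.4, 252, 192 and 291 in 3D. The cultures overlapped, and mouse 1 was the lowest of all 8. Ifi27 differed by 0.20 ± 0.37 on the log2 scale (limma adjusted p = 0.683), and the sign was negative with the values as deposited and with median-ratio scaling. Its relative Ifi27l2a covered 4.28 to 49.7 in 2D and 1.06 to 455 in 3D and did not pass with (limma adjusted p = 0.450) or without the 3D library of mouse 1 (adjusted p = 0.0660). Sp100, a nuclear body protein that silences viral DNA, covered 2.88 to 10.9 and 0.214 to 32.2, and Xaf1, a pro-apoptotic antagonist of XIAP, covered 1.73 to 6.31 and 1.45 to 27.2. Xaf1 rose by 2.57 ± 0.38 without that library (limma adjusted p = 0.00268), and Sp100 passed in neither fit. Cxcl10, a chemokine that recruits T cells, was at 0.212, 7.38, 3.55 and 0 normalized FPKM in 2D and at 0.146, 6.12, 10.1 and 6.92 in 3D. Mouse 3 in 2D was within the levels of the higher 3D libraries, and Cxcl10 did not pass (difference 0.99 ± 0.93, limma adjusted p = 0.431).

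**Figure D4:**
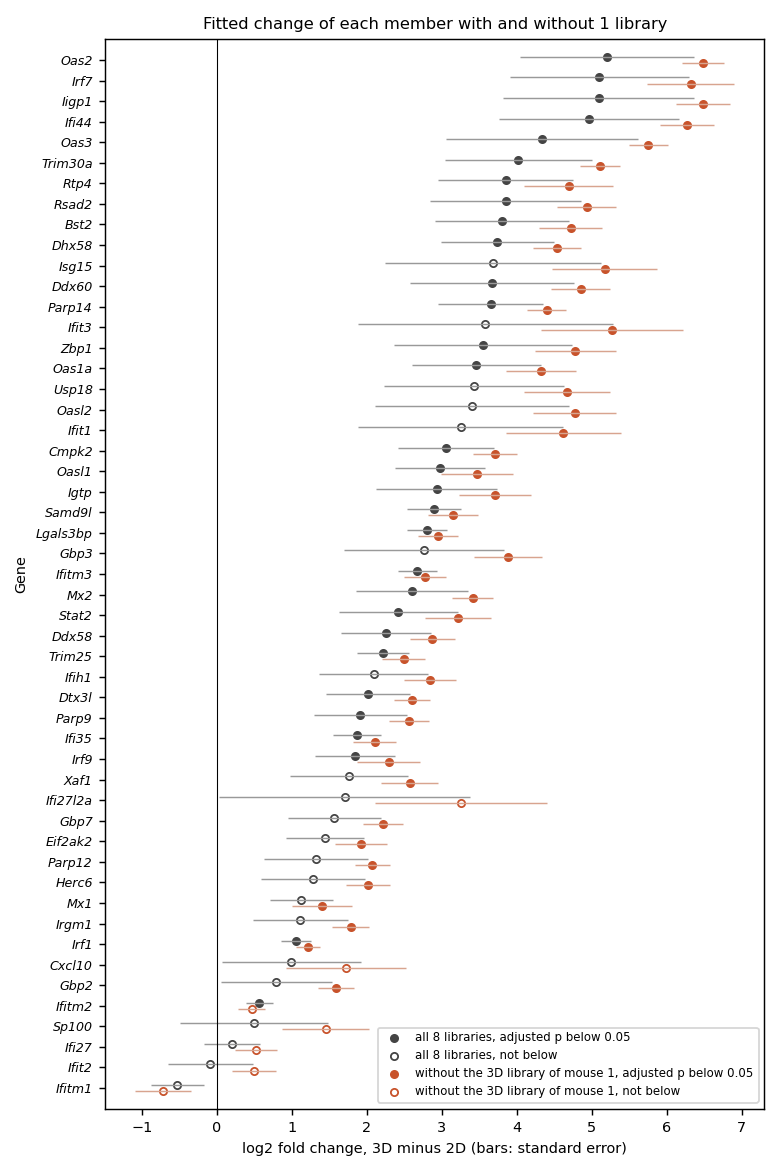
Log2 fold change (3D minus 2D, on the log2(FPKM + 1) scale) of each member with its standard error, with all 8 libraries (grey) and without the 3D library of mouse 1 (orange), where filled points have an adjusted p below 0.05. Leaving out that library, which was singled out for its low values of these members, raised the median difference from 2.67 to 3.22. The number of filled points went from 30 to 44.

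The levels of the genes above the members in the pathway were examined from lists of 55 genes, of which 43 were above 0 in some library. Of these, 16 rose (37.2%, against 21.2% of all genes) and 3 fell (6.98%, against 20.3%). Without the 3D library of mouse 1, 16 rose (37.2%, against 21.5%) and 2 fell (4.65%, against 18.3%). The interferon ligands were nearly silent. Of 21 genes, 12 were listed at 0 in every library, and Ifnb1, encoding interferon beta, was above 0 only in the 3D library of mouse 7, at 0.116 normalized FPKM. Ifnk, an interferon of epithelial cells, was the only ligand that rose, at 0, 0, 0.0743 and 0 normalized FPKM in 2D and at 0.933, 0.882, 1.91 and 1.49 in 3D. All 3D libraries, mouse 1 included, were above all 2D libraries, and on the deposited FPKM, before quantile normalization, the 3D mean was at least 6.735-fold higher than the level of 3 fragments in 2D (limma adjusted p = 5.14e-04).

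The type I receptor genes did not pass. Ifnar1 covered 10.9 to 16.2 in 2D and 13.3 to 19.8 in 3D (limma adjusted p = 0.293), and Ifnar2 29.1 to 37.9 and 23.5 to 33.8 (adjusted p = 0.289). The type III receptor chain Ifnlr1 was at 0.09405, 1.16, 1.02 and 0.0515 normalized FPKM in 2D and at 4.5, 5.57, 6.72 and 5.15 in 3D. The cultures did not overlap, and the 3D libraries were close to each other. Ifnlr1 rose by 2.10 ± 0.28 (SE) on the log2 scale (limma adjusted p = 8.05e-04), and by 2.18 ± 0.31 without the 3D library of mouse 1 (adjusted p = 0.00236). Il10rb, its partner, did not pass (limma adjusted p = 0.365). Of the interferon gamma receptor chains, Ifngr1 rose by 0.86 ± 0.16 (limma adjusted p = 0.00379) and Ifngr2 was lower in 3D, its log2 fold change being -0.72 ± 0.11 (adjusted p = 0.00128).

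Among the kinases, Tyk2 rose by 0.45 ± 0.15 (limma adjusted p = 0.0444, lost in 6 of the 7 fits without 1 of the other libraries, up to 0.0968), while Jak1 (adjusted p = 0.135) and Jak2 (adjusted p = 0.575) did not pass.

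Tlr3, the endosomal receptor for double-stranded RNA, was at 1.63, 2.36, 2.51 and 1.78 normalized FPKM in 2D and at 11.99, 31.1, 28.01 and 45.01 in 3D. Here every 3D library, mouse 1 included, exceeded every 2D library. Tlr3 was higher in 3D by 3.16 ± 0.36 on the log2 scale (limma adjusted p = 3.57e-04) and by 3.52 ± 0.20 (adjusted p = 5.53e-05) when that library was left out. Mavs, the mitochondrial adaptor of RIG-I-like sensors, rose by 1.15 ± 0.15 (limma adjusted p = 7.16e-04), and so did the IRF3-activating kinases Tbk1, by 0.65 ± 0.12 (adjusted p = 0.00388), and Ikbke, by 1.27 ± 0.24 (adjusted p = 0.00418). Myd88, the adaptor of most other Toll-like receptors, was lower in 3D, its log2 fold change being -0.54 ± 0.18 (limma adjusted p = 0.0457), and did not pass without the 3D library of mouse 1 (adjusted p = 0.0975), nor in 5 of the 7 fits without 1 other library (adjusted p up to 0.108). Of the other regulatory factors, Irf3 rose by 0.69 ± 0.14 (limma adjusted p = 0.00562). Irf5, a factor mostly of immune cells, was lower, at 3.57 to 6.21 against 0.0969 to 0.272 (limma adjusted p = 6.24e-05). Its 3D values lay at or under the level of 3 fragments, and its deposited 2D mean was at least 6.59-fold higher than that level. Among the inhibitors, Ptpn6, encoding the phosphatase SHP-1, covered 0.0601 to 0.267 in 2D and 7.896 to 10.3 in 3D and rose (limma adjusted p = 2.95e-06). The 2D values of Ptpn6 lay at or under the level of 3 fragments, and its deposited 3D mean was at least 6.49-fold higher than that level. Socs1 (limma adjusted p = 0.701) and Socs3 (adjusted p = 0.256), the feedback inhibitors of JAK kinases, did not pass.

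**Figure D5:**
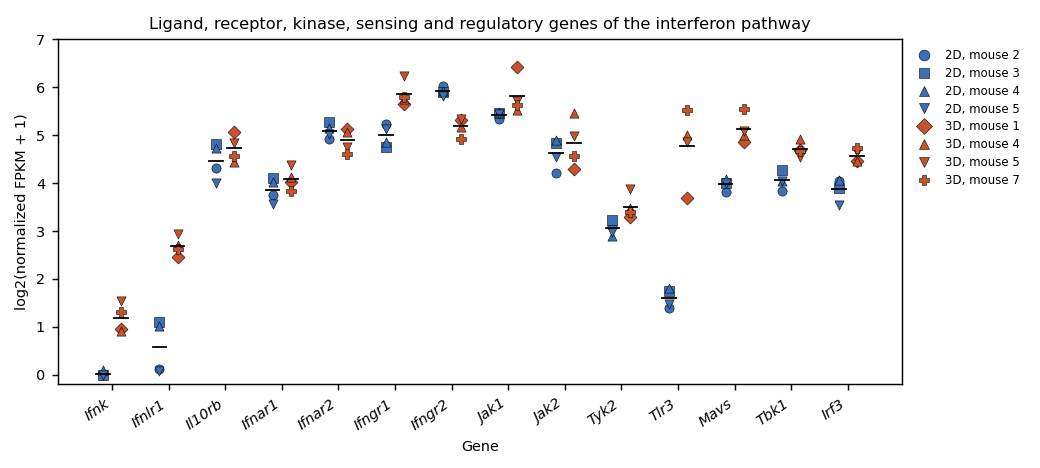
Level of 14 ligand, receptor, kinase, sensing and regulatory genes, as log2(normalized FPKM + 1) on the y axis, in each 2D (blue) and 3D (orange) library, with 1 marker shape per mouse and short lines at the group means. Ifnlr1 and Tlr3 are higher in every 3D library than in every 2D library, while Ifnar1 and Ifnar2 overlap between the cultures.

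A list of 55 further interferon-stimulated genes, of which 54 were listed and tested, was examined in the same way. In this list 26 rose (48.1%, against 21.2% of all genes) and 2 fell (3.7%, against 20.3%) with all libraries. Without the 3D library of mouse 1, 41 rose (75.9%, against 21.5%) and 2 fell (3.7%, against 18.3%). Only 15 rose without the 2D library of mouse 2 or 5 or the 3D library of mouse 4 or 7, fits for which no share over all genes is given. Mouse 1 was lower than every other 3D library by more than 1 on the log2 scale for 29 of the 54 (53.7%, against 2.07%). Among the genes that passed, the largest fitted rises were those of Gbp9, Oas1g, Uba7, Oas1b and Tnfsf10. Gbp9, a guanylate-binding protein, was at 0 to 0.00401 in 2D and 4.43 to 31.6 in 3D, and on the deposited FPKM at least 275-fold higher than the level of 3 fragments (limma adjusted p = 8.22e-04). Uba7, the enzyme that activates ISG15, was at 2.13, 5.25, 3.47 and 2.53 normalized FPKM in 2D and at 11.6, 48.6, 38.5 and 53.4 in 3D, without overlap, and rose by 3.02 ± 0.48 (limma adjusted p = 0.00181). Tnfsf10, encoding the death ligand TRAIL, was at least 36.7-fold higher on the same scale (limma adjusted p = 2.16e-04). The falls were those of Ifi27l2b and Samhd1. Ifi27l2b covered 12.6 to 70.04 in 2D and 0 to 0.146 in 3D (limma adjusted p = 1.49e-04). Its 3D values lay at or under the level of 3 fragments, and its deposited 2D mean was at least 297-fold higher than that level. Samhd1, which depletes the nucleotides that viral polymerases use, covered 19.3 to 25.7 in 2D and 2.46 to 16.2 in 3D (limma adjusted p = 0.0469). This call was lost in 6 of the 7 fits without 1 library other than the 3D library of mouse 1. Ifi27l2a and Ifi27l2b are similar genes, so their reads may be split. Ly6a (Sca-1), a stromal marker that is also inducible by interferon, was at 24.03, 66.1, 165 and 52.02 normalized FPKM in 2D and at 58.6, 1429, 2473 and 3117 in 3D. Only the 3D library of mouse 1 stayed in the 2D range, and the other 3D libraries were far above it. Ly6a rose by 3.86 ± 1.28 (SE) on the log2 scale (limma adjusted p = 0.0432), and by 5.17 ± 0.64 without the 3D library of mouse 1 (adjusted p = 0.00130). The call for Ly6a was lost when any 1 of the other 7 libraries was left out (limma adjusted p up to 0.112).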

How the data were processed

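Total RNA of 8 ADSC cultures was depleted of ribosomal RNA and made into directional libraries. The authors mapped the paired-end reads with TopHat, to mm10 according to the submitters' processing notes, and computed the deposited FPKM values (fragments per kilobase of transcript, scaled to library size) per gene with Cufflinks. No read counts were used here, and whether the counting used strand is not given in the sources used here. The deposited values had upper quartiles of 10.7 to 11.4 FPKM between libraries and were therefore not yet quantile normalized.

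Of 24346 genes listed, 5484 were at 0 in every library, and 18862 were tested. The deposited FPKM values were quantile normalized, converted to log2(FPKM + 1) with a pseudocount of 1, and fitted with limma 3.58.1 in R 4.3.3 with an intensity trend and no covariates. P-values were adjusted by Benjamini-Hochberg over all genes tested. Levels are quantile-normalized FPKM. Since FPKM values of 1 gene move in whole fragments, depth was read from the smallest spacing among low values, over 875 single-transcript genes of 3000 nt or longer, and the floor of a gene is the value of 3 fragments at its shortest coding transcript. Fold bounds were computed against that floor from the deposited FPKM, not from the quantile-normalized values. The limit covers counting error only.

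The groups were taken from the labels, and mice 4 and 5 pair the cultures because the same animals gave both. Over 12577 genes, the deviations of their 2D and 3D libraries from the culture means correlated at -0.05 (mouse 4) and -0.11 (mouse 5). The members and gene lists were chosen with earlier results of these data known. Values per library are given for members with an adjusted p below 0.05 and a log2 fold change above 2 in size, and for the member of each role with the highest mean. Ifit1 and Ifit2 were also given per library, outside this rule and after their values were seen. Other members are given by range, and those that were exceptions to a count were named after their values were seen. Of the pathway lists, genes that passed and every receptor and kinase could be named, except for items that are not reported here, and of the further interferon-stimulated genes the 5 largest rises and falls. Ifnb1, Socs1, Socs3 and Ly6a were named outside this rule, after their values were seen. The alternatives were the values as deposited, median-ratio scaling, no trend, a mean of at least 1 FPKM, genes under 300 nt left out, a pseudocount of 0.1, the mouse as a fixed or random term, the libraries of only mice 4 and 5, and the omission of each library. The fit with only mice 4 and 5 compared the cultures without pairing the libraries of a mouse. Promoter sequences are from RefSeq (GRCm38.p6) and exon overlaps from GENCODE. Other assays of the study (imaging, qPCR, flow cytometry, protein blots) were not analysed here.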

Additional observations from a re-analysis of the deposited data

Results flagged for a closer look

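Single libraries stood apart within their culture in 12 of 102 groups of 4 values (51 members in 2D and in 3D), by a Dixon ratio above its 95% critical value, which chance gives in about 1 in 20 groups. In 3D the library of mouse 1 was the low value for Irf7 (10.2 normalized FPKM), Oas2 (2.58), Oas3 (0.326), Gbp2 (0.617), Bst2 (59.6), Parp12 (3.82), Parp14 (7.66) and Ifi44 (2.37), and the high value for Ifitm1 (0.980). The other 3D values of Ifitm1 lay under the level of 3 fragments. In 2D the library of mouse 3 was the high value for Ddx58 (15.98), Oas1a (3.32) and Parp9 (14.1). The members share their libraries, so these groups are not independent of each other.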

How the results depend on the processing

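The median difference of the members stayed between 2.29 and 3.23 on the log2 scale, and 0 members were lower in 3D, under every alternative run in limma. The mouse as a fixed block left 0 members, 0 and 0 pathway genes (higher and lower) and 0 and 0 further interferon-stimulated genes with an adjusted p below 0.05, in a fit with 1 residual degree of freedom, while 44 members were higher at an unadjusted p below 0.05. The block fit rests on mice 4 and 5, so its log2 differences are the same as those with only mice 4 and 5. Leaving out each library in turn gave between 18 and 44 members higher: 19, 27, 19 and 19 without the 2D libraries of mice 2, 3, 4 and 5, and 44, 20, 20 and 18 without the 3D libraries of mice 1, 4, 5 and 7. For the further genes it gave 15 to 41 higher and 1 to 2 lower. Apart from the fit without the 3D library of mouse 1, no share over all genes is given for these fits. Other settings gave 28 to 35 members higher. For these settings too no share over all genes is given, so their counts, also those of the other lists, are description only. With only mice 4 and 5, the pathway genes came to 9 higher and 1 lower, and the further genes to 0 lower. Without an intensity trend 1 further gene was lower. The Ifit2 log2 fold change reversed from -0.09 to 0.08 with the values as deposited, 0.14 with median-ratio scaling, 0.17 with the block, 0.17 with only mice 4 and 5, 0.07 without the 2D library of mouse 4 and 0.49 without the 3D library of mouse 1, and lay at -0.40 without the 3D library of mouse 7. The Sp100 log2 fold change reversed to -0.14 without the 3D library of mouse 4, with 1.45 at the other end of the range without that of mouse 1, and the Ifi27 log2 fold change to -0.34 with the values as deposited and -0.28 with median-ratio scaling. The causes were not tested. Of 866 values of single genes, 704 kept their direction and side of the threshold, 108 no longer passed, 45 newly passed and 9 reversed. With 4 libraries per culture and 1 far from the rest in 3D, genes with wide spread are tested with little precision, and low genes rest on few fragments.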
